A study of Mus musculus with 6 samples.

Results

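The genes described here encode histone deacetylases, the enzymes that remove acetyl groups from histones, and the values are levels of acetylated lysine 5 of histone H4 (H4K5ac) on those genes in the mouse hippocampus. They are 10 of 37273 annotated genes on the numbered chromosomes, X and Y, namely Hdac1, Hdac2, Hdac3, Hdac4, Hdac5, Hdac7, Hdac9, Hdac10, Hdac11 and Sirt1, and were chosen by name as autosomal members of the family with a gene body and promoter in the GENCODE annotation of mm9. Chromatin came from the hippocampus of C57/BL6 mice aged 6 months. The fear-conditioned group (FC) was trained with foot shock in a context, and the control group (CON) was exposed to the context alone. Each group was sequenced as 1 H4K5ac-ChIP library, 1 IgG-IP library made with an unspecific antibody, and 1 input library of total chromatin. With 1 library per group and antibody there is no replicate error, so no test across mice was made. All intervals are exact 95% intervals on read counts, which cover counting error only, and a difference between FC and CON is a difference between libraries. Whole hippocampus was used, so fewer cells that carry the mark and less of the mark per cell cannot be told apart.

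Deacetylases are grouped by sequence and mechanism. Class I enzymes (Hdac1, Hdac2 and Hdac3) are mostly nuclear and work as the catalytic subunits of corepressor complexes. Class IIa enzymes (Hdac4, Hdac5, Hdac7 and Hdac9) bind MEF2 transcription factors and leave the nucleus on 14-3-3 proteins once phosphorylated, class IIb is represented by Hdac10 and class IV by Hdac11, and the class III enzyme Sirt1 depends on NAD+. Acetylation of H4K5 is a mark of active chromatin, and inhibitors of deacetylases are known to strengthen contextual memory in rodents.

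The libraries held between 14549689 and 45673239 aligned reads, of which 11.5% to 17.8% shared position and strand with another read. Read density is given as reads per kb of the interval per 1000000 aligned reads of the library (RPKM). The gene body ran from the first annotated transcription start site (TSS) to the last transcription end (TTS), and the promoter was taken as 5 kb before the first TSS. Of the markers checked, H4K5ac-ChIP over input on the gene body was at least 1.5-fold for 1 of 5 neuronal genes in FC and 3 of 5 in CON. It was so for 1 and 2 of 3 astrocyte genes, for 2 of 3 oligodendrocyte genes in both groups, and for 0 of 3 microglial genes and 0 of 5 genes not used in brain in either, where 22.7% of all genes were in FC and 41.2% in CON. Over IgG-IP it was so for 4 and 3 of the neuronal genes, 2 and 2 of the astrocyte genes, 3 and 2 of the oligodendrocyte genes, 2 and 1 of the microglial genes and 1 and 0 of those not used in brain, where 55.1% and 50.6% of all genes were. The shares of marker genes thus depended on the control. Among the genes not used in brain, Hbb-b1 had few reads, at 0.0202 RPKM of H4K5ac-ChIP in FC. The interval of its log2 ratio over input in CON, from -2.38 to 1.05, spans the 1.5-fold mark, so it is not resolved there. The FC input library differed from the CON input library by base composition: over 24427 genes its ratio to the CON input rose with the GC content of the gene body (Spearman's rho 0.80, a description across genes, which are not replicates), and over the 10 deacetylase genes rho was 0.85. Ratios over IgG-IP are given beside those over input, and windows and counts use input unless stated.

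The median H4K5ac density on the deacetylase genes was above that of all genes, and the members spread widely. The median density on the 10 gene bodies was 0.843 RPKM in the FC H4K5ac-ChIP library and 0.810 in CON, against 0.483 and 0.471 over all annotated genes and 0.549 and 0.541 over the 22367 protein-coding genes. Hdac9 lay below the median of all genes in both groups, and Sirt1 below that of the protein-coding genes. In input the members' median was 0.610 RPKM in FC, against 0.498 over all genes, and 0.417 in CON, against 0.411. The order in FC ran from Hdac10 through Hdac11, Hdac7, Hdac5, Hdac4, Hdac3, Hdac1, Hdac2 and Sirt1 to Hdac9. Intervals of neighbours in this order did not overlap between Hdac5 and Hdac4, between Hdac4 and Hdac3, and between Sirt1 and Hdac9, and overlapped for all other neighbours. In CON they did not overlap between Hdac10 and Hdac7, Hdac5 and Hdac3, Hdac2 and Sirt1, and Sirt1 and Hdac9.

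**Figure D1:**
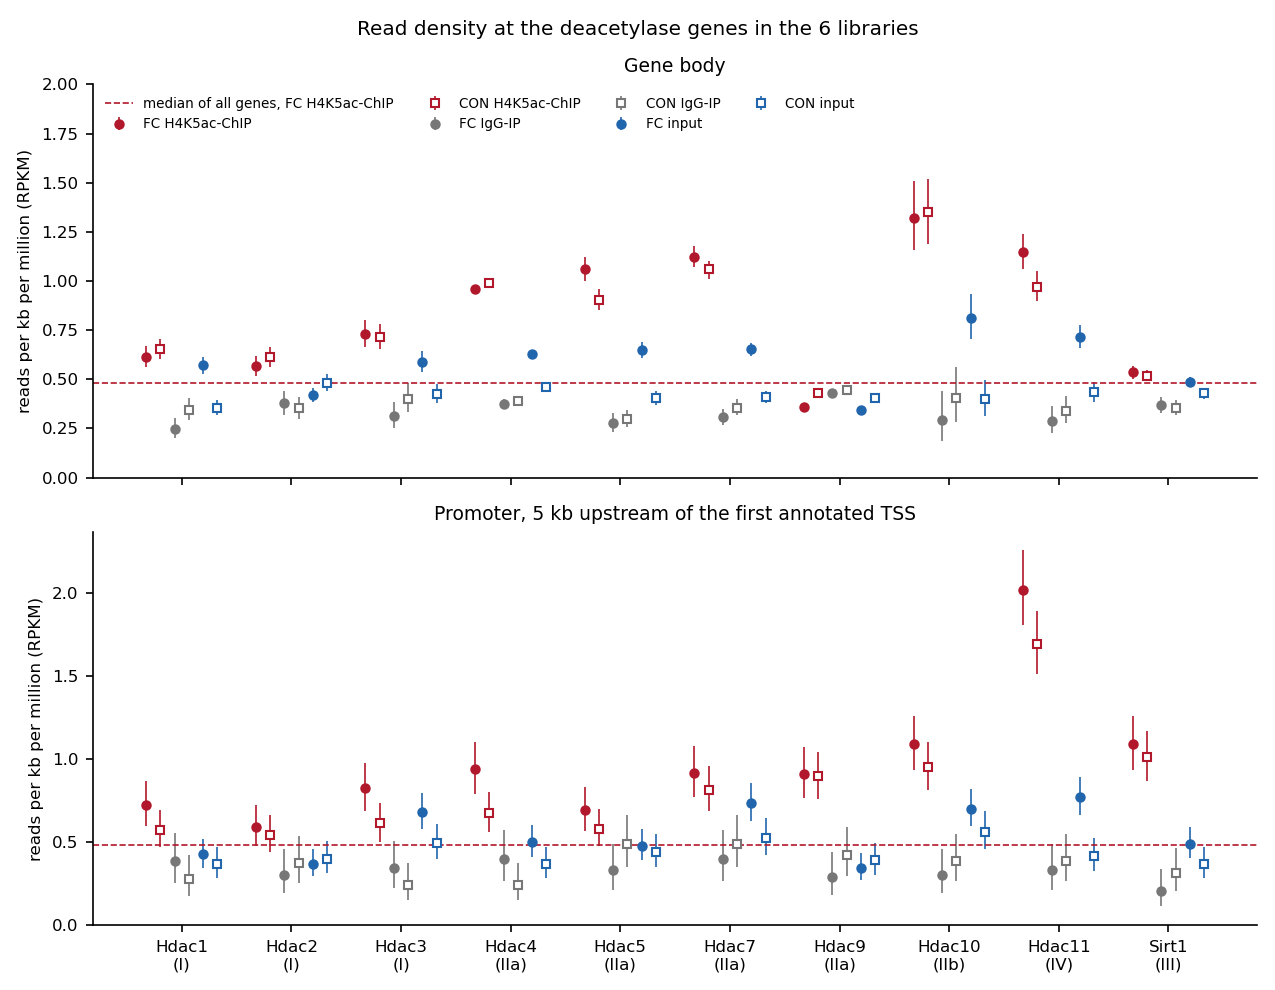
Reads per kb per 1000000 aligned reads (vertical axis) on the gene body (top) and the 5 kb promoter (bottom) of each deacetylase gene, with its class in brackets; filled circles are FC and open squares CON, red H4K5ac-ChIP, grey IgG-IP and blue input, bars are exact 95% counting intervals, and the dashed line is the median of all genes in the FC H4K5ac-ChIP library. The H4K5ac-ChIP points run from 0.361 for Hdac9 to 1.35 for Hdac10 on gene bodies, and the Hdac11 promoter stands highest at 2.02 in FC and 1.69 in CON.

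The class I genes lay in a narrow range, from 0.565 to 0.729 RPKM in FC and from 0.611 to 0.715 in CON. Hdac1 (chromosome 4, 26.6 kb) gave H4K5ac-ChIP densities of 0.615 RPKM (FC) and 0.653 (CON), 0.248 and 0.346 in IgG-IP, and 0.571 and 0.354 in input. For Hdac1, which shares the Sin3, NuRD and CoREST complexes with Hdac2, the FC input stood nearly level with the FC H4K5ac-ChIP, whereas the CON input stood well below its own. Hdac2, the isoform best known as a brake on synaptic plasticity and memory (chromosome 10, 27.3 kb), gave 0.565 and 0.611 RPKM in H4K5ac-ChIP, 0.377 and 0.353 in IgG-IP, and 0.420 and 0.481 in input. Its H4K5ac density was close to that of Hdac1, with input lower in FC than in CON, the opposite order to Hdac1. Hdac3, the catalytic subunit of the NCoR/SMRT complex (chromosome 18, 19.1 kb), gave 0.729 and 0.715 RPKM in H4K5ac-ChIP, 0.312 and 0.402 in IgG-IP, and 0.589 and 0.425 in input. It was the highest class I gene in both H4K5ac-ChIP libraries, although its interval overlapped that of Hdac1 in each.

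The class IIa genes spanned nearly the whole range of the family, from 0.361 to 1.12 RPKM in FC and from 0.432 to 1.06 in CON. Hdac4, which shuttles between cytoplasm and nucleus with neuronal activity (chromosome 1, 216 kb), gave H4K5ac-ChIP densities of 0.957 RPKM (FC) and 0.992 (CON), 0.375 and 0.387 in IgG-IP, and 0.631 and 0.461 in input. Hdac5, another activity-dependent shuttling enzyme (chromosome 11, 35.7 kb), gave 1.06 and 0.905 in H4K5ac-ChIP, 0.277 and 0.299 in IgG-IP, and 0.648 and 0.404 in input. Hdac7, best known from lymphocytes and vessel walls (chromosome 15, 51.8 kb), gave 1.12 and 1.06 in H4K5ac-ChIP, 0.306 and 0.354 in IgG-IP, and 0.652 and 0.409 in input. These genes stood at or above percentile 89.0 of all annotated genes in FC, and in each the order of the libraries was the same, with H4K5ac-ChIP highest, input next and IgG-IP lowest. Hdac9 was the exception within the class. Its 481 kb body on chromosome 12 gave 0.361 and 0.432 RPKM in H4K5ac-ChIP, 0.429 and 0.445 in IgG-IP, and 0.342 and 0.404 in input. Averaged over this long gene, the H4K5ac-ChIP density was no higher than that of IgG-IP in either group.

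The remaining genes fell at both ends. Hdac10, a polyamine deacetylase of class IIb and the shortest member (chromosome 15, 5.4 kb), gave H4K5ac-ChIP densities of 1.32 RPKM (FC) and 1.35 (CON), 0.293 and 0.404 in IgG-IP, and 0.811 and 0.397 in input, at percentiles 96.7 and 97.8 of all genes. Hdac11, the only class IV enzyme, which removes fatty acyl groups from lysine (chromosome 6, 18 kb), gave 1.15 and 0.972 in H4K5ac-ChIP, 0.290 and 0.340 in IgG-IP, and 0.714 and 0.433 in input. Both genes carried the mark at several times the IgG-IP level. Sirt1, which deacetylates histones and factors such as p53 (chromosome 10, 62.7 kb), gave 0.535 and 0.519 in H4K5ac-ChIP, 0.367 and 0.354 in IgG-IP, and 0.484 and 0.429 in input. Averaged over its annotated body, Sirt1 was thus close to the typical gene, at percentile 55.1 in FC.

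On the promoters the order changed, and Hdac11 stood alone. Its promoter gave H4K5ac-ChIP densities of 2.02 RPKM (FC) and 1.69 (CON), with 0.330 and 0.388 in IgG-IP, and 0.771 and 0.417 in input, which is percentile 99.9 of all annotated genes in both H4K5ac-ChIP libraries. In both groups its interval lay above that of the next member. The other 9 promoters ranged from 0.589 (Hdac2) to 1.09 (Hdac10 and Sirt1) in FC and from 0.545 (Hdac2) to 1.01 (Sirt1) in CON. The intervals of all neighbours in that order overlapped. The median was 0.481 and 0.473 over all genes and 0.557 and 0.545 over protein-coding genes. Hdac2 in CON was thus level with the median of protein-coding genes. Hdac9 and Sirt1, the lowest on gene bodies, had promoter densities of 0.911 and 1.09 RPKM in FC and 0.895 and 1.01 in CON, denser than their bodies in both groups. Hdac4, Hdac5, Hdac7 and Hdac10 had the reverse order in both groups, most widely Hdac5 in FC, with 0.690 and 0.578 on the promoter against 1.06 and 0.905 on the body. In FC the intervals of promoter and body overlapped for Hdac4, Hdac7 and Hdac10. For Hdac4 the order also depends on the start, as RefSeq gives one 31.9 kb upstream. Before that start the density was 1.28 and 1.15 RPKM within 2 kb, and 0.570 and 1.14 from 5 to 3 kb. Its annotated body had 0.957 and 0.992.

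A further question was how far the mark rose over its controls. A gene was counted where H4K5ac-ChIP was at least 1.5-fold its control (log2 ratio of 0.58), and the background is the share of all annotated genes with at least 20 reads in both libraries together that did so. All 10 members passed this read minimum. On gene bodies, 5 of 10 members reached 1.5-fold over input in FC, against 22.7% of all genes, and 7 of 10 in CON, against 41.2%. Centred on the median of all genes, 1 of 10 (Hdac7) did in FC, against 14.1%. Over IgG-IP, 7 of 10 did in FC, against 55.1%, and 8 of 10 in CON, against 50.6%, the latter being 5 of 10 when centred, against 17.1%. The median log2 ratio of the members over input was 0.51 in FC and 0.99 in CON, against 0.16 and 0.45 over all genes. Over IgG-IP it was 1.33 and 1.14, against 0.69 and 0.59.

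Among class I genes the body ratios were modest and depended on the control. Over input, Hdac1 had a log2 ratio of 0.11 (interval -0.06 to 0.27) in FC and 0.89 (0.69 to 1.08) in CON, Hdac3 had 0.31 and 0.75, and Hdac2 had 0.43 and 0.35. Over IgG-IP, Hdac1 had 1.31 and 0.92, Hdac3 had 1.22 and 0.83, and Hdac2 had 0.58 and 0.79. Hdac1 and Hdac3 therefore stood lower in FC than in CON by input and higher in FC than in CON by IgG-IP. The order of Hdac2 was the reverse of theirs with both controls. The FC and CON intervals overlapped for Hdac2 with both controls and for Hdac1 and Hdac3 over IgG-IP, so those orders are not resolved. Hdac2 over IgG-IP in FC fell just short of the 1.5-fold mark before rounding.

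Among class IIa genes, Hdac4, Hdac5 and Hdac7 passed the 1.5-fold mark with either control in both groups, although Hdac4 and Hdac5 fell under it over input in FC once centred on the median of all genes. Over input, Hdac4 had log2 ratios of 0.60 (0.55 to 0.65) in FC and 1.10 (1.05 to 1.16) in CON, Hdac5 had 0.71 and 1.16, and Hdac7 had 0.79 and 1.37. Over IgG-IP, Hdac4 had 1.35 and 1.36, Hdac5 had 1.93 and 1.60, and Hdac7 had 1.88 and 1.58. Hdac4 thus passed narrowly over input in FC, and Hdac7 was the highest member over input in FC. Hdac9 reached 0.08 (0.03 to 0.13) and 0.10 (0.05 to 0.14) over input and -0.25 (-0.31 to -0.19) and -0.04 (-0.10 to 0.02) over IgG-IP. Its whole-body value was the lowest of the family with both controls and in both groups.

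Hdac10 had log2 ratios over input of 0.71 (0.43 to 0.99) in FC and 1.77 (1.39 to 2.15) in CON, the latter at percentile 99.0 of all genes. Over IgG-IP, with 23 and 36 IgG-IP reads, it had 2.18 (1.56 to 2.86) and 1.74 (1.23 to 2.28), the highest of the family in both groups. These intervals overlapped those of Hdac5, Hdac7 and Hdac11 in both groups, so the rank is not resolved. The gap between the input ratios of Hdac10 lies beside an input density of 0.811 RPKM in FC and 0.397 in CON. Hdac11 had 0.69 and 1.17 over input and 1.99 and 1.52 over IgG-IP, close to Hdac5. Sirt1 stayed under the mark with every control, at 0.14 and 0.27 over input and 0.54 and 0.55 over IgG-IP.

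Across the 10 genes the body values followed base composition. Spearman's rho with the GC content of the gene body was 0.87 for the FC H4K5ac-ChIP density, 0.79 and 0.90 for the ratio over input in FC and CON, and 0.92 for the ratio over IgG-IP in FC. Over all annotated genes the same values were 0.49, 0.08, 0.42 and 0.57. Hdac9 had the lowest GC content of the members at 38.6%, and Hdac5, Hdac10, Hdac7 and Hdac11 the highest at 55.0%, 54.9%, 53.0% and 51.9%. Points share libraries, these are descriptions over genes, and the part of GC content in the ratios was not tested.

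On promoters, 7 of 10 members reached 1.5-fold over input in FC, against 25.2% of all genes, and 7 of 10 in CON, against 36.7%. The FC count was 4 with the outermost RefSeq start, for which there is no share of all genes, and the CON count was 4 when centred on the median of all genes, against 22%. Over IgG-IP, 10 of 10 did in FC, against 46.6%, and 8 of 10 in CON, against 42.8%. The median log2 ratio over input was 0.72 in FC and 0.70 in CON for the member promoters. It was 0.09 and 0.29 over all genes, and 0.22 and 0.46 over protein-coding genes. The Hdac11 promoter had log2 ratios of 1.39 in FC and 2.02 in CON over input and 2.62 and 2.12 over IgG-IP. The Sirt1 promoter had 1.15 and 1.47 over input and 2.40 and 1.68 over IgG-IP, and the Hdac9 promoter 1.40 and 1.2 over input and 1.66 and 1.08 over IgG-IP. The Hdac9 and Sirt1 values hold for the starts that the annotation gives, which for Hdac9 is also the inner RefSeq start. The 5 kb before the annotated Sirt1 start overlaps the start of Dnajc12. With the 5 kb upstream of the outer RefSeq start, Hdac9 was at -0.39 in FC and -0.38 in CON over input, and with those upstream of its RefSeq start Sirt1 was at 0.46 and 1.02. The members under the mark over input on the promoter were Hdac3, Hdac5 and Hdac7 in FC, at 0.28, 0.53 and 0.32, and Hdac2, Hdac3 and Hdac5 in CON, at 0.45, 0.30 and 0.40.

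**Figure D2:**
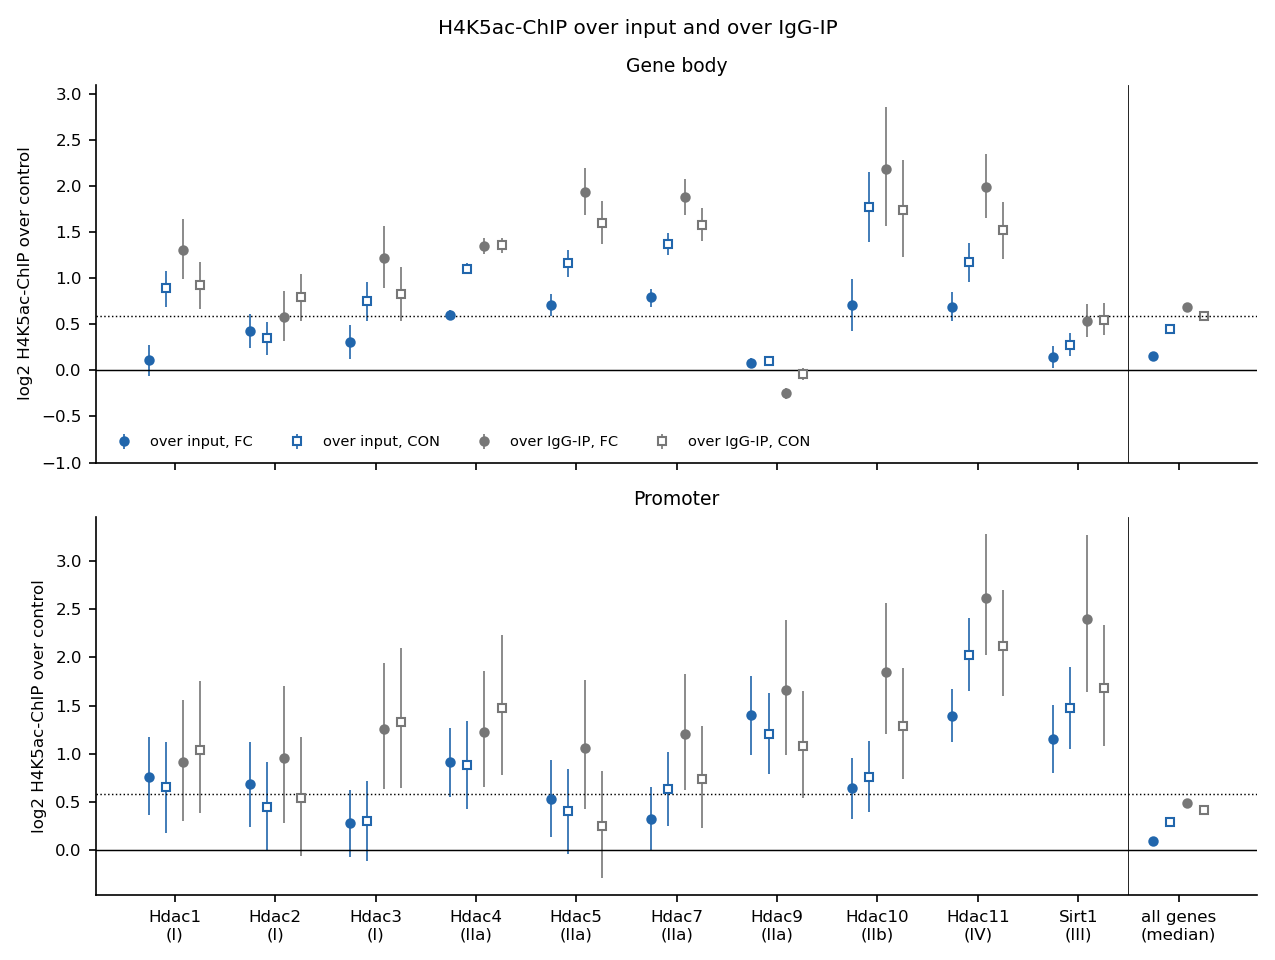
Log2 ratio of H4K5ac-ChIP over input (blue) and over IgG-IP (grey) on the gene body (top) and promoter (bottom), filled circles for FC and open squares for CON, with exact 95% counting intervals, the median of all genes at the right and a dotted line at 1.5-fold. Hdac9 lies near 0 on the gene body with log2 ratios from -0.25 to 0.10 and well above it on the promoter with 1.08 to 1.66, and Hdac11 reaches 2.62 on the promoter.

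The comparison of FC with CON asked whether the H4K5ac-ChIP library of FC held more or fewer of its reads on these genes. Each library was scaled to its own aligned reads, so a change of the mark across the whole genome would not show here. On gene bodies, 0 of 10 members had a log2 ratio of FC over CON of at least 0.32 in H4K5ac-ChIP, against 12.7% of all genes, and 0 of 10 were lower in FC by at least that much, against 5.69%. These counts depended on the control: 7 of 10 were lower in FC less the input ratio of FC over CON, against 42.7% of all genes, and 5 of 10 higher less that of IgG-IP, against 24.4%. The median log2 ratio of FC over CON in H4K5ac-ChIP was 0.00 for the members and 0.04 over all genes. Hdac10 was sequenced at 226 and 262 reads, Hdac1 at 517 and 625, and Hdac4 at 6521 and 7690, so the precision varied greatly among members. The interval of Hdac4, with log2 -0.05 (-0.10 to 0.00), is narrow, whereas that of Hdac10, with -0.03 (-0.29 to 0.24), is wide. A narrow interval bounds the counting error between these libraries and not the difference between the groups. Less the input ratio Hdac4 was at -0.50, and less the IgG-IP ratio at 0.00.

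Apart from Hdac4, whose interval ended just below 0, the intervals of 3 members lay away from 0 on the gene body. Hdac9 had 5490 reads in FC and 7482 in CON, a log2 ratio of -0.26 (-0.31 to -0.21), and remained below 0 after subtraction of the input ratio (-0.02), of the IgG-IP ratio (-0.21) and of the median over genes with like GC content (-0.17, the GC median), although the first of these left almost nothing. Hdac5 had 1194 and 1163 reads, a log2 ratio of 0.22 (0.11 to 0.34), which was 0.33 less the IgG-IP ratio, 0.06 less the GC median, and turned to -0.46 less the input ratio. Hdac11 had 656 and 630 reads, a log2 ratio of 0.24 (0.08 to 0.40), which was 0.47 less the IgG-IP ratio, 0.12 less the GC median, and turned to -0.48 less the input ratio. The direction for Hdac5 and Hdac11 thus depended on the control, and none of the 3 genes reached a log2 difference of 0.32 before a control ratio was subtracted.

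On promoters, 3 of 10 members (Hdac1, Hdac3 and Hdac4) were higher in FC by a log2 ratio of at least 0.32, against 17.8% of all genes, and 0 of 10 lower, against 12.4%. The Hdac4 promoter had 148 reads in FC and 121 in CON, a log2 ratio of 0.48 (0.12 to 0.84), Hdac3 had 130 and 110, at 0.43 (0.05 to 0.81), and Hdac1 had 114 and 103, at 0.33 (-0.06 to 0.73). Less the IgG-IP ratio these turned to -0.24, -0.08 and -0.13, and less the input ratio they were 0.03, -0.03 and 0.12. The count of 3 was 1 with 1 read kept per position and strand, against 16.3% of all genes, and 1 less the GC median, against 14.8%. It was 6 with a promoter of 2 kb, against 26%, 7 less the IgG-IP ratio, against 34.6%, and 0 less the input ratio, against 20.3%. With the 5 kb upstream of its RefSeq start Hdac4 stood at -0.32, lower in FC. All 10 promoter ratios were above 0, from 0.03 for Hdac9 to 0.48 for Hdac4, but only the intervals of Hdac3, Hdac4 and Hdac11 (0.03 to 0.49) were. The median was 0.22 against 0.05 over all genes, which is above 0 as well, and Hdac9 lay below the median of all genes. Less the GC median all 10 remained above 0, from 0.06 for Sirt1 to 0.44 for Hdac4. Less the IgG-IP ratio 7 of 10 did, and less the input ratio 5 of the 10 were below 0. The share of all promoters above 0 was not counted in any of these settings, so these counts have no background.

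The input libraries also differed between the groups at these genes, on 9 of 10 bodies by more than H4K5ac-ChIP did. The share of all genes for which this held was not counted. Their median log2 ratio of FC over CON on gene bodies was 0.31 in input and 0.04 in H4K5ac-ChIP, so the difference was not particular to the members. The FC input was above the CON input by a log2 ratio of at least 0.32 on 7 of 10 member bodies, against 49.3% of all genes, and on 5 of 10 promoters, against 39.3%. On the body the log2 ratio of the inputs was 1.03 for Hdac10, 0.72 for Hdac11, 0.69 for Hdac1, 0.68 for Hdac5, 0.67 for Hdac7, 0.47 for Hdac3 and 0.45 for Hdac4, and it was -0.24 for Hdac9. Less the GC median, the input ratio was 0.35 for Hdac10 and 0.27 for Hdac1 and lay between -0.09 and 0.20 for the other 8. The lower ratios over input in FC at GC-rich members lay beside this difference, and with the CON input as control of both groups, an alternative chosen after the data had been seen, 7 of 10 bodies, against 42.5% of all genes, and 9 of 10 promoters, against 38%, reached 1.5-fold in FC.

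**Figure D3:**
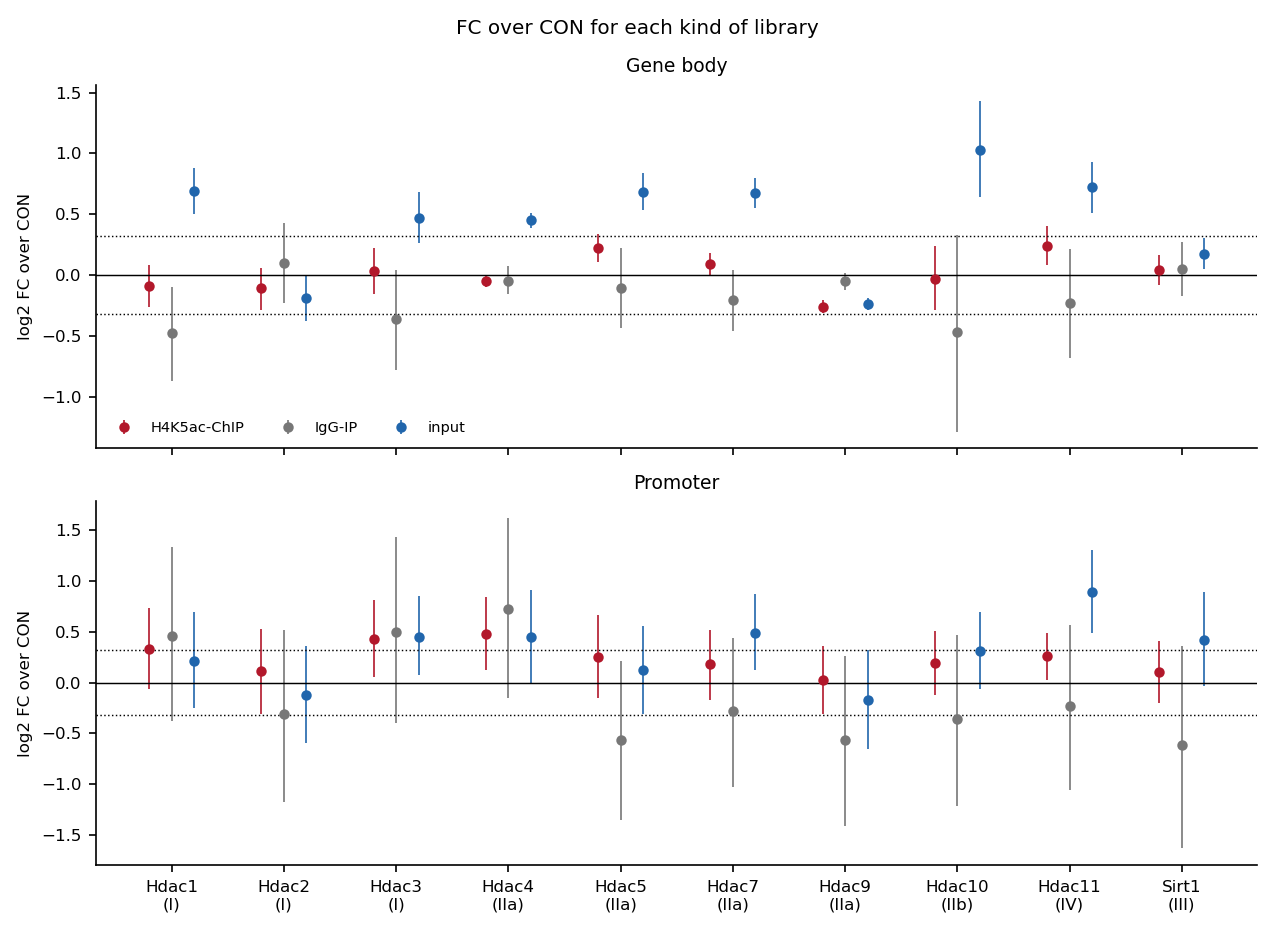
Log2 ratio of FC over CON on the gene body (top) and promoter (bottom) of each deacetylase gene for H4K5ac-ChIP (red), IgG-IP (grey) and input (blue), with exact 95% counting intervals and dotted lines at log2 ratios of 0.32 either way. The red points of the gene bodies lie between -0.26 and 0.24, while the blue points reach 1.03 at Hdac10.

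The gene bodies were then read in windows of 1 kb, which show whether a density is spread evenly or gathered in stretches. A window was called rich in H4K5ac where at least 20 reads started in it and their number exceeded 2 times that of the depth-scaled input. In FC 123 of 942 windows in the members were rich (13.1%, against 11.1% of windows in all gene bodies), and in CON 253 (26.9%, against 18.1%). Of the 942, 68 were rich in both, against 55071 of the 1056114 windows in all gene bodies. With IgG-IP as control in place of input the numbers were 294 (31.2%, against 22.2% of windows in all gene bodies) and 310 (32.9%, against 22.8%), so the gap between FC and CON lay beside the choice of control. By raw number, Hdac4 held the most, 42 of 215 windows in FC (19.5%) and 116 in CON (54.0%). In FC Hdac9 followed with 35 of 481 and Hdac7 with 17 of 51. By share of windows, Hdac7, Hdac10 and Hdac11 were highest in FC at 33.3% each, with 64.7%, 100% and 61.1% in CON. Hdac10 has only 6 windows. Hdac9, at 7.28% and 8.94%, lay below the share of all gene bodies in both groups. The densest single windows of Hdac4 lay close together, centred 44.5, 46.5 and 48.5 kb into the gene. The one at 44.5 kb was the densest in FC with 66 reads (51 in CON), and the one at 48.5 kb in CON with 71 (61 in FC).

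Hdac9 showed a gradient along its body. Divided into 10 equal parts, its body ran from 0.690 RPKM next to the start to 0.271 at the end in FC H4K5ac-ChIP, and from 0.829 to 0.314 in CON, whereas input lay between 0.257 and 0.397 in FC and between 0.351 and 0.461 in CON. Most of the fall lay before the middle of the gene, and the profile had the same form in both groups. The 157 kb from the start to the end of the short annotated transcripts gave 0.572 and 0.684 RPKM, a log2 ratio over input of 0.62 (0.55 to 0.70) in FC and 0.64 (0.56 to 0.71) in CON. The other 324 kb gave 0.259 and 0.310, at -0.34 (-0.41 to -0.28) and -0.32 (-0.38 to -0.26). Over IgG-IP the 5′ stretch had 0.41 and 0.52 and the remainder -0.73 and -0.47, the same order with both controls. The near-zero whole-body value of Hdac9 was thus the average of a 5′ stretch above its control and a longer remainder below it, and the intervals of these stretches did not overlap. The short transcripts end early in the gene and are known to encode a form without the deacetylase domain.

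Sirt1 also proved to be uneven, on both sides of the start that RefSeq gives. The annotation begins the gene 42.7 kb upstream of the start that RefSeq gives. In the added 42.7 kb, which the noncoding gene Gm16145 overlaps, H4K5ac-ChIP gave 0.475 RPKM in FC and 0.411 in CON, with log2 ratios over input of -0.15 (-0.30 to -0.01) and -0.06 (-0.22 to 0.10) and over IgG-IP of 0.33 (0.11 to 0.55) and 0.28 (0.06 to 0.50). These are averages over the stretch. Of the 10 equal parts of the body, the first had 0.38 and 0.68 over input, and the fourth, also in this stretch, had -0.65 and -0.77 over IgG-IP. In the 20 kb from the RefSeq start to the TTS it gave 0.663 and 0.750, with ratios over input of 0.77 (0.56 to 0.98) and 0.80 (0.60 to 1.01) and over IgG-IP of 0.95 in both groups. Counted from the RefSeq start, Sirt1 therefore stood past 1.5-fold with either control in both groups, level with Hdac7 over input in FC. Set directly against CON, the FC H4K5ac-ChIP density had a log2 ratio of 0.21 (0.05 to 0.37) in the added stretch and -0.18 (-0.36 to 0.01) from the RefSeq start on, so the directions differed and both sizes were under 0.32.

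Hdac4 varied less in density, with its 10 parts between 0.786 and 1.13 RPKM in FC and between 0.846 and 1.15 in CON. Its ratio over input in FC still ran from 1.00 in part 3 to 0.11 in the last part, and over IgG-IP from 1.70 to 0.90 in the same parts. The RefSeq start of Hdac4 lies 31.9 kb upstream of the annotated one, and that stretch, outside the annotated body, gave 1.02 and 0.949 RPKM with ratios over input of 0.71 (0.58 to 0.84) and 1.06 (0.91 to 1.22) and over IgG-IP of 1.39 and 1.43. The mark thus ran on at body level up to the RefSeq start. Hdac7 has several starts, and the 39.1 kb downstream of the inner RefSeq start gave 1.17 and 1.11 RPKM, against 0.999 and 0.902 in the 12.7 kb before it. The ratio over input there was 0.89 (0.77 to 1.00) against 0.47 (0.27 to 0.68) in FC, and 1.49 (1.35 to 1.63) against 0.98 (0.74 to 1.23) in CON. Over IgG-IP it was 1.95 against 1.62 in FC and 1.77 against 1.03 in CON. Hdac11 was densest in FC in the 1.8 kb after its start, with 1.77 RPKM, while the 1.06 of CON there lay within the 0.802 to 1.19 of its other parts. Hdac1 gave 0.892 and 0.993 in the part next to the start, against 0.487 and 0.648 in the part next to the end.

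**Figure D4:**
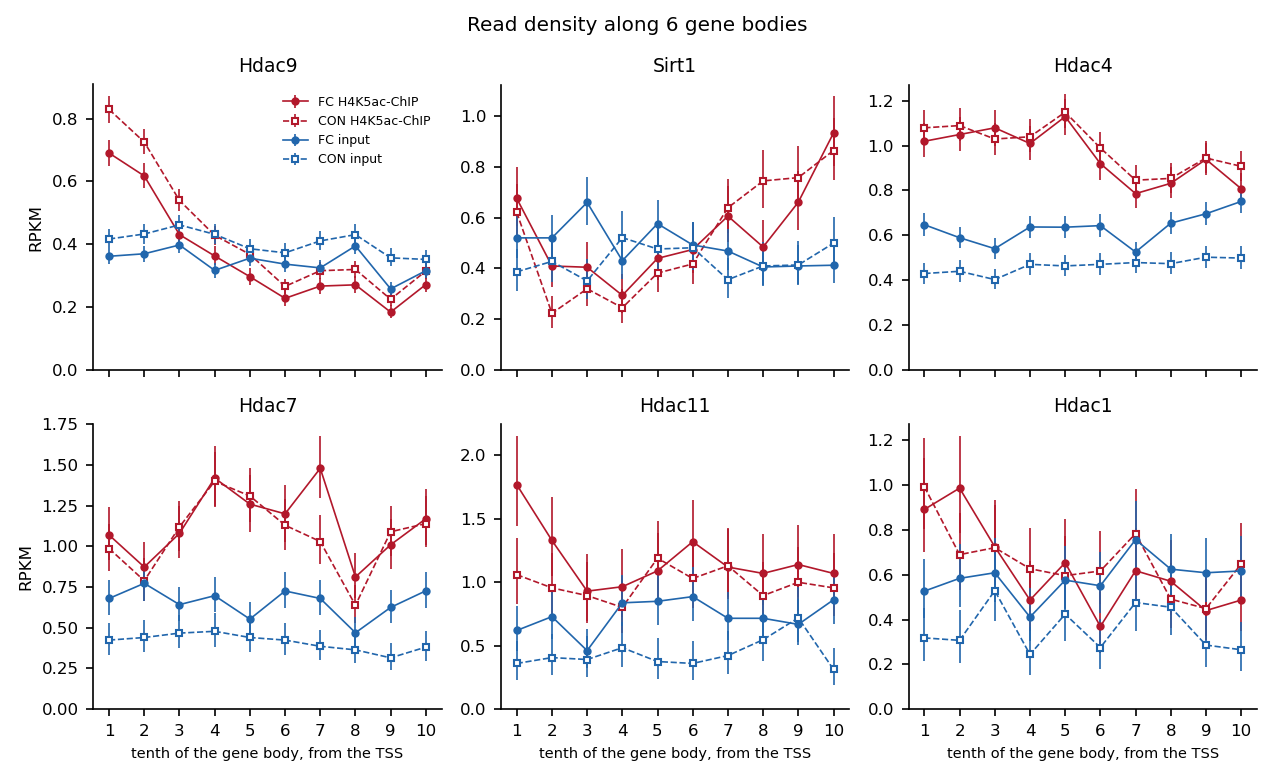
Reads per kb per 1000000 aligned reads in 10 equal parts of the gene body, from the first annotated TSS (part 1) to the TTS (part 10), for Hdac9, Sirt1, Hdac4, Hdac7, Hdac11 and Hdac1; red is H4K5ac-ChIP, blue input, filled circles with solid lines FC, open squares with dashed lines CON, and bars exact 95% counting intervals. Hdac9 falls from 0.690 to 0.271 in FC and from 0.829 to 0.314 in CON while its input lies between 0.257 and 0.397 in FC, Sirt1 is highest in its last part at 0.934 and 0.865, and Hdac4 lies between 0.786 and 1.15.

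Around the starts, H4K5ac was read from 2 kb upstream to 2 kb downstream. Hdac11 was the highest member over input in FC, with 260 (FC) and 214 (CON) reads of H4K5ac-ChIP, against 12 and 25 in IgG-IP and 118 and 61 in input, which gives log2 ratios over input of 1.67 (1.35 to 2.00) and 1.79 (1.38 to 2.23). Hdac3 was the lowest, at 0.62 and 0.66. Hdac4 and Hdac7 were also low at their annotated starts, where Hdac4 had 135 and 115 reads and ratios of 0.80 and 1.10, and Hdac7 had 151 and 114 reads and ratios of 0.80 (0.45 to 1.16) and 0.91 (0.44 to 1.38). Hdac1, Hdac2, Hdac5 and Hdac10 ran from 0.97 to 1.34 in FC and from 1.06 to 1.68 in CON where the annotated start is used, with Hdac2 in CON just below Hdac4. Hdac9 reached 1.15 (0.79 to 1.51) and 1.40 (0.98 to 1.85) at its annotated start, and -0.54 (-1.06 to -0.04) and -0.43 (-1.03 to 0.17) at the outer RefSeq start 388 kb upstream. Only the inner of these Hdac9 starts stood above input. The 388 kb between them gave 0.451 RPKM in FC and 0.515 in CON. Its log2 ratios were 0.31 and 0.25 over input and 0.10 and 0.21 over IgG-IP. For Sirt1 the annotated start gave 1.13 and 1.81 and the RefSeq start 0.90 and 0.87, and for Hdac4 the annotated start gave 0.80 and 1.10 and the RefSeq start 1.18 and 1.62. Both starts of these genes were above input in both groups. Over IgG-IP the annotated starts ran from 1.2 for Hdac3 to 3.32 for Hdac11 in FC and from 0.71 for Hdac7 to 1.97 for Hdac11 in CON, so Hdac11 was highest with that control in both. The RefSeq start of Sirt1 had 1.57 and 1.46 over IgG-IP and that of Hdac4 1.62 and 1.74, and the outer RefSeq start of Hdac9 had -0.20 and -0.79. The annotated Sirt1 start lies 0.738 kb from Dnajc12, which is read in the opposite direction, so the reads around it cannot be assigned to Sirt1 alone.

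The sequences below are the bases just upstream of a start in mm9, written 5′ to 3′ along the gene, with each CpG in capitals. By H4K5ac-ChIP over input in FC, Hdac11 is shown as the highest annotated start, and Hdac4 and Hdac7, nearly equal at 1.74-fold and 1.75-fold, as the lowest after Hdac3. Sirt1 and Hdac4 are shown with both starts because these lie far apart. RefSeq starts were placed by finding the promoter sequences of RefSeq (build GRCm38.p6) in mm9, where 11 of 11 matched exactly once. They cover 7 of the 10 members, with no entry for Hdac1, Hdac3 and Hdac10.
Hdac11, first annotated start (chr6:91106409-91106658, plus strand): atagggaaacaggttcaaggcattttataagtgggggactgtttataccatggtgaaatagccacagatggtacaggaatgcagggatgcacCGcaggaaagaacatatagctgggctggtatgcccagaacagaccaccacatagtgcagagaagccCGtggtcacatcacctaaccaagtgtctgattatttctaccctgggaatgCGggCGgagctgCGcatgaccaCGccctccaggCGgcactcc
Hdac7, first annotated start (chr15:97674934-97675183, minus strand): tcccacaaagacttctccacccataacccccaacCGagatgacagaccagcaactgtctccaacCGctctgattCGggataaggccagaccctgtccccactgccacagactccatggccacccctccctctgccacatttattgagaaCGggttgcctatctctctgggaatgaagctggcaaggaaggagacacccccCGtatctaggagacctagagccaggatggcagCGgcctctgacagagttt
Sirt1, first annotated start (chr10:62844453-62844702, minus strand): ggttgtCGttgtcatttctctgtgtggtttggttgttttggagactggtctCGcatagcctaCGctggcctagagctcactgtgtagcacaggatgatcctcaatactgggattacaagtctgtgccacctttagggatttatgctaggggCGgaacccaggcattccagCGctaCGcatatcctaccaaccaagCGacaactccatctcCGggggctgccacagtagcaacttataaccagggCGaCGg
Sirt1, RefSeq start (chr10:62801799-62802033, minus strand): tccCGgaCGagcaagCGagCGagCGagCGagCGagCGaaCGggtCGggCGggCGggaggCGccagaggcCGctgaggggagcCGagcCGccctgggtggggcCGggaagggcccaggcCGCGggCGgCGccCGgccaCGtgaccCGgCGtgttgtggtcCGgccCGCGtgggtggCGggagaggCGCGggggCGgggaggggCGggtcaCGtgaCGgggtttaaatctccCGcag
Hdac4, first annotated start (chr1:94044971-94045220, minus strand): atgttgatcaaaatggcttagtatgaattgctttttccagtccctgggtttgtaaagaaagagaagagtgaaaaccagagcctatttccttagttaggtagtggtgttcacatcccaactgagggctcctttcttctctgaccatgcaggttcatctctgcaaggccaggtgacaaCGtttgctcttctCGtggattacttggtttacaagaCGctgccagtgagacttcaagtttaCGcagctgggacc
Hdac4, RefSeq start (chr1:94076919-94077168, minus strand): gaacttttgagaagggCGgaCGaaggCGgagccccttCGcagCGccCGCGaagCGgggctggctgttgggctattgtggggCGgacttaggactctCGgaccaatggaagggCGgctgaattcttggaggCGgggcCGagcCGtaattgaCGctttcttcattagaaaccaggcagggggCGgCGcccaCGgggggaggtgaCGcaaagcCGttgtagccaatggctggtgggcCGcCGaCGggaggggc
The Sirt1 RefSeq sequence holds 235 bases, since 15 of its 250 upstream bases lie in an exon of another transcript.

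In the 250 bases upstream, the RefSeq start of Sirt1 had 39 CpG, a number that 1.3% of all annotated genes reach, and its annotated start had 10, which 32.8% reach. The RefSeq start of Hdac4 had 23 (10.8%) and its annotated start 4 (55.5%), the median of all genes. The median of protein-coding genes was 8. Hdac2 had 27, Hdac1 24, Hdac3 16, Hdac5 and Hdac10 12 each, Hdac11 7, Hdac7 6 and Hdac9 2 at their annotated starts. The GC box (GGGCGG, either strand) was present upstream of 27.7% of all genes and 39.6% of protein-coding genes. It occurred 5 times at the Sirt1 RefSeq start and 4 times at the Hdac4 RefSeq start, against 1 and 0 at their annotated starts. CCAAT, present upstream of 33.7%, occurred 2 times at the Hdac4 RefSeq start and at both Hdac5 starts, and 1 time at the Hdac1 start and the Hdac11 RefSeq start. The cAMP response element (TGACGTCA), present upstream of 1.3%, was found upstream of no member start.

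Some CpG-dense starts had few H4K5ac-ChIP reads at the start itself and many beside it. The 500 bp within 250 bp of a start were set against the 2500 bp of both flanks out to 1500 bp. At the RefSeq start of Sirt1 H4K5ac-ChIP had 4 reads from FC and 0 from CON, against 76 and 69 in the flanks, and input had 0 and 0 against 55 and 35. These are densities of 0.253 and 0 RPKM against 0.962 and 0.767 in H4K5ac-ChIP, where a count of 0 allows up to 3 reads as a limit on the upper side alone. For the RefSeq start of Hdac4 the counts were 3 and 0 against 94 and 94 in H4K5ac-ChIP, and 8 and 5 against 45 and 21 in input. The input density, 0.350 and 0.282 RPKM, was close to that of its flanks at 0.394 and 0.237. Hdac1 had 5 and 3 reads against 95 and 87 in H4K5ac-ChIP, and 0 and 2 against 51 and 25 in input. IgG-IP had few reads at any of these starts, with 0 and 0 against 8 and 10 at Sirt1, 1 and 0 against 16 and 12 at Hdac4, and 1 and 2 against 10 and 21 at Hdac1. The dip thus lay in input as well as in H4K5ac-ChIP at Sirt1 and Hdac1, whereas at Hdac4 the input, with few reads, showed none. The dip did not follow CpG number throughout. Hdac2, with 27 CpG, had a shallower dip in H4K5ac-ChIP, 10 and 6 reads against 82 and 85, beside 2 and 0 against 39 and 35 in input. The Hdac11 RefSeq start, with 17 CpG, had 9 and 6 H4K5ac-ChIP reads against 206 and 166. Hdac5, with 12 CpG, had 3 and 7 H4K5ac-ChIP reads against 88 and 90. An inner Hdac7 start with 21 CpG had 8 and 17 against 74 and 78, no dip in CON. Another inner Hdac7 start close to it, with 25 CpG, dipped in both groups, with 4 and 4 against 80 and 99. The annotated starts of Sirt1 and Hdac9, with 10 and 2 CpG, had 27 and 25 H4K5ac-ChIP reads against 97 and 127, and 25 and 19 against 110 and 123, with no such dip. Over the 18 starts of the members, several of which lie close together, the density within 250 bp had a Spearman's rho with the CpG number of -0.60 (FC) and -0.73 (CON) for H4K5ac-ChIP, and of -0.76 and -0.77 for input. The density of the flanks had -0.32 and -0.06 in H4K5ac-ChIP and -0.51 and -0.01 in input. How far the recovery of CpG-rich fragments sets this dip was not tested.

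**Figure D5:**
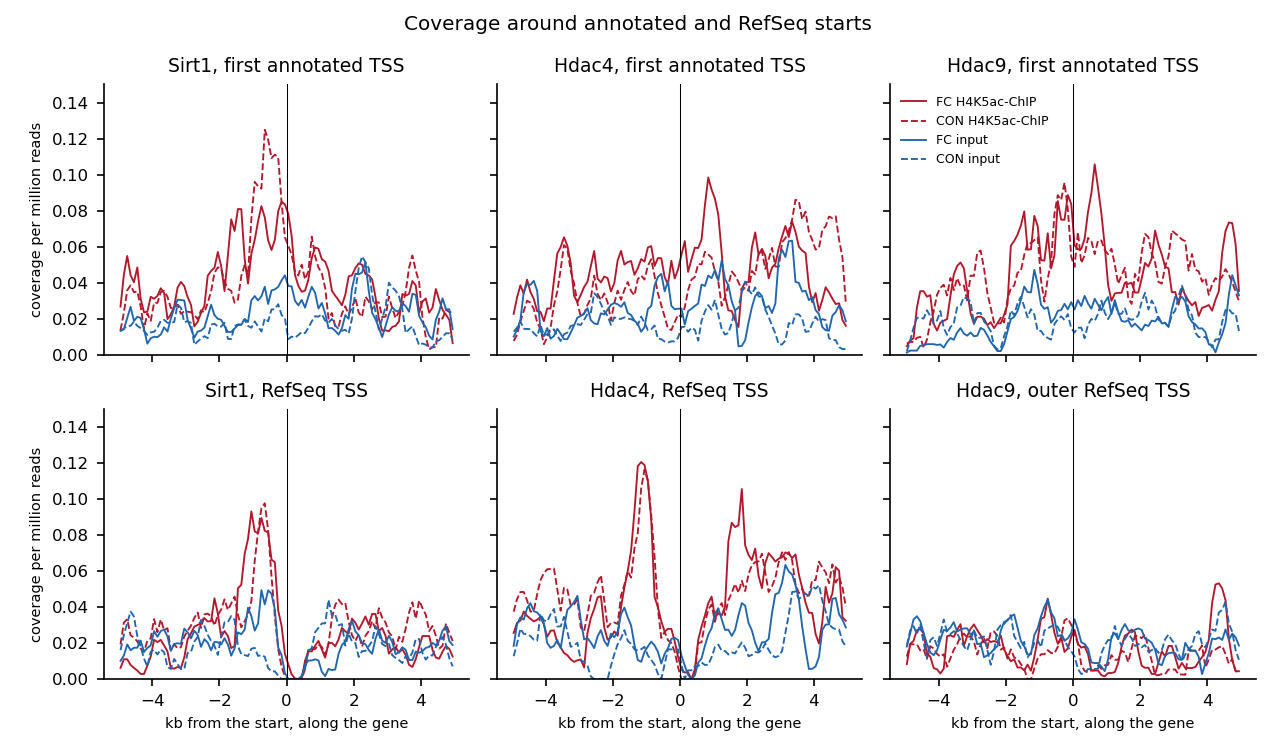
Coverage per 1000000 aligned reads (vertical axis) within 5 kb of the annotated start (top) and of the RefSeq start (bottom; the outer one for Hdac9) of Sirt1, Hdac4 and Hdac9, oriented along the gene; red is H4K5ac-ChIP, blue input, solid lines FC and dashed lines CON, averaged over 5 bins of 100 bp. At the RefSeq starts of Sirt1 and Hdac4 the red lines drop close to 0 between flanks that reach 0.0977 and 0.121. Within 2 kb of the outer RefSeq start of Hdac9 the red lines stay at or below 0.0447.

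The partners of these enzymes were read from lists of their complexes. Over input on the gene body, 4 of 10 NuRD genes reached 1.5-fold in FC and 9 of 10 in CON, 2 and 4 of 4 CoREST genes, 3 and 4 of 4 NCoR/SMRT genes and 3 and 5 of 12 Sin3 genes, against the 22.7% and 41.2% of all genes. Of the MEF2 factors and 14-3-3 proteins that bind class IIa enzymes, 4 of 10 did in FC and 6 of 10 in CON, and of the 6 sirtuins other than Sirt1, 3 and 6. Over IgG-IP the counts were 9 and 9 for NuRD, 4 and 4 for CoREST, 4 and 3 for NCoR/SMRT, 7 and 10 for Sin3, 9 and 8 for the class IIa partners and 6 and 5 for the sirtuins, against 55.1% and 50.6%. Median log2 ratios over input in FC ran from 0.32 for Sin3 to 0.92 for NCoR/SMRT, with 0.51 for the deacetylases. Over IgG-IP they ran from 0.62 for Sin3 to 1.33 for the deacetylases, with 0.96 for NCoR/SMRT. Sin3 was the lowest list with both controls in FC, while the highest differed. The highest and lowest genes of each list over input in FC were Mbd2 (0.88), which binds methylated CpG, and Mbd3 (0.10) for NuRD, and Rcor2 (0.90) and Rcor3 (0.54) for CoREST. They were Ncor1 (0.94), the scaffold that holds Hdac3, and Gps2 (0.17) for NCoR/SMRT, and Arid4b (0.80) and Suds3 (-0.02) for Sin3. For the class IIa partners they were Mef2a (1.01) and Mef2b (-0.17), and for the sirtuins Sirt4 (0.77), a mitochondrial enzyme, and Sirt5 (0.10). In FC over CON H4K5ac-ChIP on the gene body, at most 1 gene of any of these 6 lists was higher by a log2 ratio of 0.32 and 0 were lower by as much, against 12.7% and 5.69% of all genes.

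Neighbouring genes show how far a density belongs to the member. Hdac10 lies 0.215 kb from Tubgcp6 and 1.88 kb from Mapk12, whose bodies gave 0.755 and 0.600 RPKM in FC and 0.804 and 0.599 in CON, below Hdac10 at 1.32 and 1.35. Hdac7 is overlapped at its end by Slc48a1, a haem transporter gene, which gave 1.33 and 1.37, and Vdr, 9.92 kb upstream, gave 0.492 and 0.515. The density of Hdac7 thus matched the neighbour at its 3′ end more closely than the one at its 5′ end. Hdac3 lies between Diap1 (0.919 and 0.962) and Rell2 (0.883 and 0.645), each within 1 kb, and its promoter overlaps Rell2 and Fchsd1. The promoters of Hdac10 and Sirt1 overlap Mapk12 and Dnajc12, and those of the other 7 members overlap no other protein-coding gene. Hdac11 has no protein-coding neighbour closer than 37.8 kb, and its 5 kb promoter, the densest of the family, overlaps none. Hdac9 is flanked by Twist1, 87.8 kb beyond its end, which gave 0.177 and 0.0907 RPKM.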

How the data were processed

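H4K5ac-ChIP, IgG-IP and input DNA of 2 groups (FC and CON) were sequenced by the authors on a SOLiD system and aligned to mm9 with Bioscope; per the submitters' processing notes the build is mm9. The authors deposited 1 BED file of aligned reads per library, in which each line is 1 read with its position and a mapping quality. This deposited score ran from 4 to 100 and was used only as a filter in 1 alternative. Reads were not normalized, and replicates could not be seen in the files.

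Reads overlapping an interval by at least 1 bp were counted, whatever their strand, in gene bodies and in 5 kb promoters of GENCODE annotation for this build, and expressed as RPKM. Ratios have exact Clopper-Pearson intervals on the reads of both libraries and densities exact Poisson intervals, both at 95%. PCR copies are not independent molecules, so the intervals cover counting error only. No test across samples was possible with 1 library per group. Counting and ratios were checked on simulated reads. Python 3.11.15, NumPy 2.4.6, SciPy 1.17.1, pandas 2.3.3 and matplotlib 3.10.9 were used.

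The members, gene lists and calls were chosen with earlier results of these data known. Genes named were all members, the highest and lowest gene of each list over input in FC, the nearest protein-coding gene on each side and genes overlapping a member; of these, the text gives those that bear on a result. Hdac4 has a further short gene record, which was not used. The stretches of Hdac9, Sirt1, Hdac4 and Hdac7, the reads within 250 bp of a start and the use of RefSeq starts were chosen after the data had been seen. Alternatives changed the control, the fold, the promoter length, the start, repeated reads, mapping quality (at least 50), read assignment, scaling, GC content and overlapped parts.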

Additional observations from a re-analysis of the deposited data

How the results depend on the processing

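No paired analysis was possible because each group has 1 library per antibody and no result comes from a test. Of 104 recomputed counts of members or windows 89 stayed within 1.5 times the reported count. Centring on the median of all genes lowered the bodies at 1.5-fold over input in FC from 5 to 1 of 10 and over IgG-IP in CON from 8 to 5, and the promoters over input in CON from 7 to 4. The outermost RefSeq start, chosen after seeing the data, lowered the promoters over input in FC from 7 to 4. Less the input ratio, bodies lower in FC by a log2 ratio of 0.32 went from 0 to 7, promoters higher from 3 to 0 and promoters lower from 0 to 1. The last of these counts has no share of all genes beside it. Less the IgG-IP ratio, bodies higher went from 0 to 5 and promoters higher from 3 to 7. Promoters higher in FC were 1 with 1 read per position and strand, 6 with a 2 kb promoter and 1 less the GC median. Windows rich in H4K5ac were 294 in FC with IgG-IP as control (31.2%, against 22.2% of windows in all gene bodies). At 1.5-fold they were 248 in FC (26.3%, against 20.8%) and 402 in CON (42.7%, against 31.3%). The reported counts were 123 and 253. Of 900 values of single members 755 stayed within their interval, 135 moved further, and 10 that were past their threshold changed sign, sign changes of values under it not being counted. With the outermost RefSeq start the Hdac9 promoter was at -0.39 and -0.38 over input in FC and CON and -0.22 and -0.65 over IgG-IP, and the Hdac4 promoter at -0.32 in FC over CON. With the longest protein-coding transcript the Hdac9 promoter over input in CON was at -0.42. In FC over CON, less the IgG-IP ratio the promoters of Hdac1, Hdac3 and Hdac4 were at -0.13, -0.08 and -0.24, and less the input ratio Hdac3 was at -0.03. The cause of these changes was not tested. Depth limits the promoters, where 93 to 320 H4K5ac-ChIP reads were counted in FC, and the starts, where IgG-IP had 11 to 34 reads.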
